A study of Bos taurus with 16 samples.

Results

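The genes described here are 10 members of the insulin and insulin-like growth factor (IGF) system: the receptors INSR and IGF1R, the receptor substrates IRS1 and IRS2, the ligand IGF1, and the IGF-binding proteins IGFBP2, IGFBP3, IGFBP4, IGFBP5 and IGFBP7. They were chosen by gene symbol, and INSR was the starting point because its level was lower in the methionine-rich treatment in these same data. Its treatment difference is therefore given as a description with no test, and tests are given for the other genes. Of the 22358 loci in the count tables, 9 carry the symbol of one of the 10 genes. The exception was IRS2, which was found under its older locus name, LOC100300012. At least 1 read was counted for 8 of the 10 genes in the 15 pools analysed, and 5 of them, INSR, IRS1, IGFBP2, IGFBP3 and IGFBP7, passed the filter on low counts that left 10519 loci for testing.

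RNA-Seq was performed on pools of expanded blastocysts from 8 lactating Holstein cows, with 2 pools from each cow. From calving until embryo collection, 4 cows received a control diet and 4 received a methionine-rich diet, which shared the same basal ration and differed in the addition of rumen-protected methionine. The methods of the study describe cows that were superovulated and inseminated and whose uteri were flushed for embryos, whereas the tissue label of the samples reads IVF embryos. Pools held a small and unequal number of embryos, with some smaller in the study's own listing than the series description states. In that listing most methionine-rich pools held more blastocysts than any control pool. Several methionine-rich pools also had a lower RNA quality number than any control pool for which one is given. Pool size and RNA quality thus ran partly with the diet. The diet was given to the cow, and the RNA was amplified before sequencing. Pools are named C (control) or M (methionine-rich), with the cow number and the pool number of that cow, so that C2.1 is pool 1 of control cow 2.

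Insulin and the IGFs act through related tyrosine kinase receptors at the cell surface. The activated receptors phosphorylate the insulin receptor substrates, which recruit phosphatidylinositol 3-kinase and adaptor proteins and so connect the receptors to AKT, MTOR and the RAS and MAP kinase cascade. The IGF-binding proteins hold IGFs outside the cell and modulate their access to receptors, and in mammalian preimplantation embryos insulin and IGF1 are known as growth and survival factors.

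The total count ranged from 5624126 to 7826542 reads in the 15 pools, with a median of 7257007, so that a floor of 3 counts corresponds to between 0.383 and 0.533 CPM (the count scaled to the pool's total) in a single pool and covers counting error only. Pool C3.2 held 1745048 reads and was left out, and its values are given where they matter. The study excluded it because few of its mapped reads fell on exons and many on introns and intergenic regions. Each of 12 trophectoderm markers had reads in at least 2 of the 15 pools. Their summed levels were between 3784 and 9681 CPM in control pools and between 3072 and 7040 CPM in methionine-rich pools. The most abundant were KRT18 (mean 3490 CPM over the 15 pools), GATA2 (706), KRT8 (445) and TFAP2C (372). IFNT was counted in only 2 pools, TKDP1 in 4 and ELF5 in 6, and PAG2 had a median of 2 reads. The summed level of 12 leukocyte markers was 2619 CPM in C2.1 and at most 31.9 CPM in the other control pools analysed. In methionine-rich pools it was between 0.152 and 10.9 CPM, and CD3E was at 0 throughout. The C2.1 sum was led by LAPTM5 (6969 reads), NKG7 (2698), TYROBP (2122), SLAMF7 (1396) and LCP1 (1031), all among the study's most significant genes. The list is therefore not independent of these data. CD53, CD52 and CORO1A were also highest in C2.1, with up to 431, 43 and 14 reads. PTPRC and ARHGDIB were highest in M8.1 and FCER1G in M8.2, with at most 48, 26 and 8 reads in a pool. The common biological coefficient of variation between pools was 1.07. Since pools are bulk samples, fewer cells of a type and less RNA per cell cannot be told apart in any value below.

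**Figure D1:**
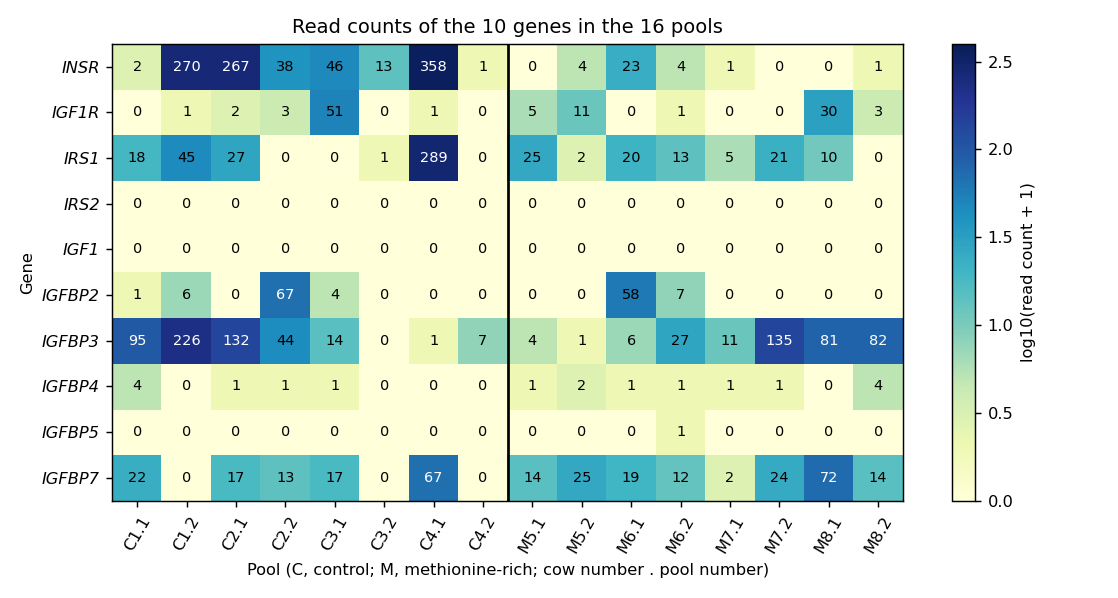
Read counts of the 10 genes (vertical axis) in the 16 pools (horizontal axis, C for control and M for methionine-rich, with cow and pool number), printed in each cell and coloured by log10(count + 1). INSR reached 358 reads in C4.1 and stayed at or below 23 reads in the 8 methionine-rich pools, while IRS2 and IGF1 had 0 reads in every pool.

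INSR, the insulin receptor, was counted in 7 of 7 control pools and in 5 of 8 methionine-rich pools. Its read counts in control pools were 2 and 270 in cow 1, 267 and 38 in cow 2, 46 in cow 3, and 358 and 1 in cow 4. In methionine-rich pools they were 0 and 4 in cow 5, 23 and 4 in cow 6, 1 and 0 in cow 7, and 0 and 1 in cow 8. Thus 5 of the 7 control pools lay above every methionine-rich pool, and the other two, C1.1 and C4.2, lay within the methionine-rich range. The level was 22.8 ± 25.2 CPM (SD, n = 7 pools; lowest 0.129, median 6.20, highest 59.0) in control pools and 0.575 ± 1.07 CPM (SD, n = 8; lowest 0, median 0.131, highest 3.13) in methionine-rich pools.

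When the pools of a cow were averaged, INSR was 20.4, 26.7, 6.20 and 29.6 CPM in control cows 1 to 4, and 0.264, 1.90, 0.0639 and 0.0675 CPM in methionine-rich cows 5 to 8. The 2 sets of cow means did not overlap, and their averages, 20.7 and 0.575 CPM, differed 36.0-fold. Among the 10519 loci, 1.05% had all 4 control cows above all 4 methionine-rich cows and 2.21% had non-overlapping cows in either direction. The log2 fold change of INSR, methionine-rich over control, was -5.37 in the edgeR exact fit and -5.43 with an SE of 1.18 in DESeq2. These values are the ones for which the gene was chosen.

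For INSR, the 2 pools of a control cow could differ by more than the treatments did. In cow 1 the level was 0.264 CPM in the first pool and 40.5 CPM in the second, and in cow 4 it was 59.0 CPM in the first and 0.129 CPM in the second. In cow 2 the 2 pools differed 8.07-fold. Cow 3 was the only control cow with like levels, 6.20 CPM in C3.1 and 7.45 CPM (13 reads) in C3.2, the pool with few reads on exons. Of the INSR signal summed over the 15 pools, 36.0% came from C4.1 and 89.6% from the 3 highest pools. One of these 3, C2.1, is the pool with the high leukocyte markers. The other two, C4.1 and C1.2, had summed leukocyte levels of 1.32 and 31.9 CPM. Without C2.1 the log2 fold change of INSR was -5.06 and the difference of cow means was -14.9 CPM, against -20.1 CPM with it.

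IGF1R, the receptor for IGF1 and IGF2, was barely sampled. Its highest counts were 51 reads in C3.1, 30 in M8.1 and 11 in M5.2, and each of the other 12 pools analysed held 5 reads or fewer. The level was 1.14 ± 2.53 CPM (SD, n = 7; median 0.165, highest 6.87) in control pools and 0.861 ± 1.43 CPM (SD, n = 8; median 0.287, highest 4.18) in methionine-rich pools, and the lowest pool was at 0 in both. The ranges overlapped, and both treatments had 1 pool far above the rest. The summed level of 14.9 CPM was just below the filter of 15 CPM. The cow means averaged 1.86 CPM in control and 0.861 CPM in methionine-rich cows and overlapped (two-sided exact permutation test over the 70 assignments of 8 cows, p = 0.8). Without the filter, its log2 fold change was -0.37 with an FDR of 1.0 by the edgeR exact test over 17409 loci.

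**Figure D2:**
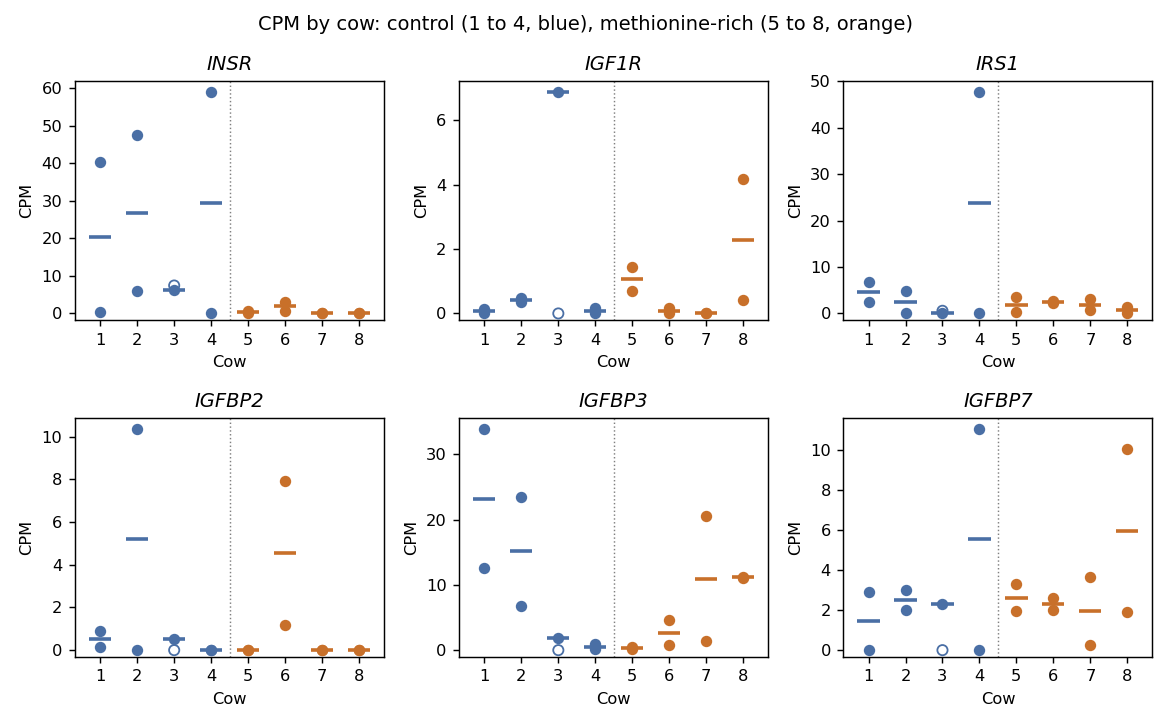
Levels (CPM, vertical axes with different scales) of 6 of the genes in each pool (points) by cow (horizontal axis), with control cows 1 to 4 in blue and methionine-rich cows 5 to 8 in orange; short lines are cow means and the open point is pool C3.2, which was left out. The means of the treatments' cows are apart only for INSR, and the pools of 1 cow often lie far apart, as in cow 4 for IRS1 at 47.6 and 0 CPM.

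IRS1, the substrate that couples insulin and IGF receptors to phosphatidylinositol 3-kinase, was counted in 4 of 7 control pools and in 7 of 8 methionine-rich pools. Its control counts were 18 and 45 reads in cow 1, 27 and 0 in cow 2, 0 in C3.1, and 289 and 0 in cow 4. Its methionine-rich counts were 25 and 2 in cow 5, 20 and 13 in cow 6, 5 and 21 in cow 7, and 10 and 0 in cow 8. Control pools held both the highest value and 3 of the 4 zeros, so the ranges overlapped. The level was 8.80 ± 17.3 CPM (SD, n = 7; median 2.38) in control pools and 1.73 ± 1.35 CPM (SD, n = 8; median 1.79) in methionine-rich pools.

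The difference of IRS1 did not pass the test. The log2 fold change was -2.51 with an FDR of 0.58 (edgeR exact test) and of 0.662 (quasi-likelihood test), and DESeq2 gave -2.54 with an SE of 1.31. The cow means, which averaged 7.70 CPM in control and 1.73 CPM in methionine-rich cows, gave p = 0.343 in the exact permutation test (adjusted p = 1.0 over all loci). Pool C4.1 alone held 63.2% of the summed level of IRS1. Without cow 4 the log2 fold change was -0.86 and the difference of cow means was -0.59 CPM.

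IRS2, the second widely expressed substrate, had 0 reads in all 16 pools under the locus that carries its RefSeq gene identifier. IGF1, the growth factor that binds IGF1R, also had 0 reads in all 16 pools. A count of 0 allows up to 0.0287 CPM over the 15 pools together, so both genes lay below what this depth could show rather than being shown to be absent.

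The binding proteins were led by IGFBP3, the main carrier of IGFs in adult blood, which was counted in 15 of 15 pools. Its counts were 95 and 226 reads in control cow 1, 132 and 44 in cow 2, 14 in C3.1, and 1 and 7 in cow 4. In methionine-rich pools they were 4 and 1 in cow 5, 6 and 27 in cow 6, 11 and 135 in cow 7, and 81 and 82 in cow 8. Both treatments thus had cows with high and cows with low values. The level was 11.4 ± 12.9 CPM (SD, n = 7; lowest 0.165, median 6.81, highest 33.9) in control pools and 6.29 ± 7.35 CPM (SD, n = 8; lowest 0.132, median 2.98, highest 20.5) in methionine-rich pools. The log2 fold change of -0.88 had an FDR of 0.978 (edgeR exact test) and of 0.927 (quasi-likelihood test). The SE was 0.996 in DESeq2, and the exact permutation test over cows gave p = 0.486. The direction rested on cow 1, without which the difference of cow means was 0.436 CPM toward the methionine-rich treatment and the log2 fold change was -0.07.

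IGFBP7, a secreted protein with low affinity for IGFs, was the most evenly spread of the 5 tested genes. It had between 2 and 72 reads (median 16.5) in 8 of 8 methionine-rich pools, and between 0 and 67 reads (median 17) in control pools, where C1.2 and C4.2 were at 0. The level was 3.04 ± 3.75 CPM (SD, n = 7; median 2.29, highest 11.0) in control pools and 3.21 ± 2.94 CPM (SD, n = 8; lowest 0.256, median 2.30, highest 10.02) in methionine-rich pools. The medians were almost the same and the ranges overlapped. The log2 fold change was 0.05 with an FDR of 1.0 (edgeR exact test) and of 0.999 (quasi-likelihood test), with an SE of 0.991 in DESeq2, and the exact permutation test over cows gave p = 0.657. With an SE of that size, a difference of 2-fold in either direction could not be told from none.

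IGFBP2 was found mainly in 1 cow of each treatment. Pool C2.2 had 67 reads (10.4 CPM) and pool M6.1 had 58 (7.90 CPM), followed by 7 reads in M6.2, 6 in C1.2, 4 in C3.1 and 1 in C1.1, and the remaining 9 pools were at 0. The level was 1.71 ± 3.84 CPM (SD, n = 7; median 0.132) in control pools and 1.14 ± 2.77 CPM (SD, n = 8; median 0) in methionine-rich pools, and the cows overlapped. The log2 fold change was -0.40 with an FDR of 1.0 (edgeR exact test) and of 0.988 (quasi-likelihood test). DESeq2 gave -0.72 with an SE of 2.75 and no adjusted p-value. The exact permutation test over cows gave p = 0.543.

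IGFBP4 and IGFBP5 were at the limit of detection. IGFBP4 never exceeded 4 reads, which C1.1 and M8.2 both reached, and its levels were 0.142 ± 0.187 CPM (SD, n = 7) in control and 0.191 ± 0.158 CPM (SD, n = 8) in methionine-rich pools (exact permutation test over cows, p = 0.486). IGFBP5, which lies next to IGFBP2 in the RefSeq annotation, had a single read, in M6.2. Neither gene passed the filter, and without it the edgeR exact test gave both an FDR of 1.0. The summed level of the 5 binding proteins was between 0.900 and 34.8 CPM (median 16.1) in control pools and between 1.79 and 24.3 CPM (median 9.76) in methionine-rich pools.

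Whether IGF1R, the substrates and the binding proteins followed INSR was thus answered for 4 genes by the test across all loci, and 0 of them, IRS1, IGFBP2, IGFBP3 and IGFBP7, passed it. Over all 10519 loci, the edgeR exact test called 110 (1.05%), of which 81 (0.77%) were lower and 29 (0.276%) higher in the methionine-rich treatment, the call requiring a 2-fold difference together with an FDR under 0.1. The quasi-likelihood test called 0 loci, with 909 (8.64%) at an unadjusted p under 0.05, and DESeq2 called 67 (0.637%). By the exact test 8.54% of loci had an unadjusted p under 0.05, among them IRS1 with 0.0493, while IGFBP2, IGFBP3 and IGFBP7 had 0.824, 0.359 and 0.981. The SEs of these 4 genes, between 0.991 and 2.75 on the log2 scale, leave room for differences of several fold.

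**Figure D3:**
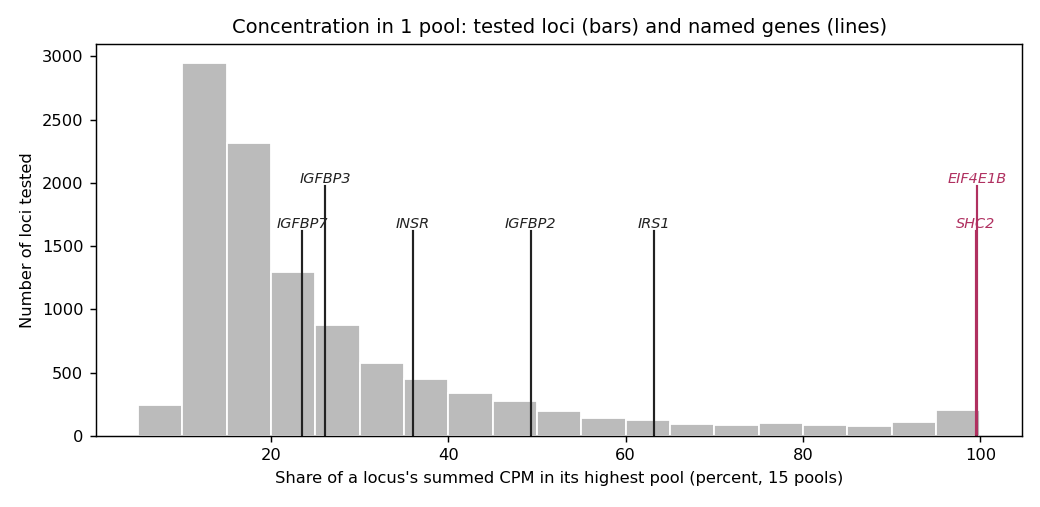
Share of each locus's summed CPM that came from its highest pool (horizontal axis, percent) for the 10519 loci tested (grey bars, number of loci on the vertical axis), with vertical lines at the 5 tested genes and at SHC2 and EIF4E1B (line heights only separate the names). The 5 genes lie between 23.5% and 63.2%; the median is 19.3% over all loci but 34.9% for loci with a mean of 1 to 5 CPM, the level of IGFBP2 and IGFBP7. SHC2 and EIF4E1B lie above 99%.

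How far the reads of a gene were concentrated in 1 pool differed among the genes. The highest pool held 63.2% of the summed level for IRS1, 49.3% for IGFBP2, 36.0% for INSR, 26.1% for IGFBP3 and 23.5% for IGFBP7. The share depends on the level, with a median of 19.3% over all loci tested but of 34.9% (quartiles 23.6% and 54.4%) at a mean of 1 to 5 CPM, 22.0% (16.7% and 32.9%) at 5 to 10 CPM and 18.5% (14.8% and 25.1%) at 10 to 20 CPM. Among loci of their own level, IGFBP2 and IGFBP3 lay between the quartiles and IGFBP7 just below the lower one, while IRS1 and INSR lay above the upper one. INSR, IRS1 and IGFBP7 had their highest level in the same pool, C4.1, whereas IGFBP3 peaked in C1.2 and IGFBP2 in C2.2. The other pool of that cow, C4.2, had 10 or more reads for 0 of the 10 genes. Both pools of cow 4 are listed in the study as single blastocysts. Each library thus comes from 1 embryo, and differences between embryos and between amplified libraries cannot be told apart here. The total of C4.2 was 7778414 reads and its summed trophectoderm level of 9681 CPM was the highest of the control pools. Among the control pools analysed, C4.2 also had the fewest loci detected, 10259. Its summed marker levels for inner cell mass (1742 CPM), hypoblast (3922), granulosa and cumulus cells (74.2) and fibroblasts and stroma (137.8) were likewise the highest among them. In each other pool analysed, between 1 and 4 of the 10 genes reached 10 reads.

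The loci whose distribution over the 15 pools was most like that of INSR were HHEX, PARP8, METTL4, SLC18A2 and PTPLA. Likeness was measured as the overlap of pool profiles, that is, the sum over pools of the smaller of the 2 genes' shares of their own summed CPM. It was 85.7% for HHEX, a homeobox transcription factor, 81.6% for PARP8, 75.7% for METTL4, 70% for SLC18A2, a vesicular monoamine transporter, and 68.7% for PTPLA, against a median of 27.1% over all loci tested. HHEX had 36 reads in C4.1, 30 in C2.1 and 18 in C1.2, the 3 pools in which INSR was highest, and at most 11 in any other pool. Most of these loci have few reads, between 0 and 42 per pool for HHEX, PARP8, METTL4 and PTPLA, so a share rests on few counts. Among the genes of the system, the overlap with INSR was 54.2% for IRS1, 49.4% for IGFBP3, 40.3% for IGFBP7 and 12.9% for IGFBP2. All these profiles come from the same libraries and are a description only.

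The surrounding pathway was examined through lists of 82 further genes, 79 of which had a locus and 53 of which were tested. The edgeR exact test called 2 of the 53 lower and 0 higher in the methionine-rich treatment, and the quasi-likelihood test called 0. Over all loci tested, the exact test called 0.77% lower and 0.276% higher. The median log2 fold change of the 53 was -0.08, against -0.05 over all loci tested, and 30 of 53 were below 0, against 53.5% of all loci. The lists were chosen with earlier results of these data known, and both called genes rest on 1 pool each.

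**Figure D4:**
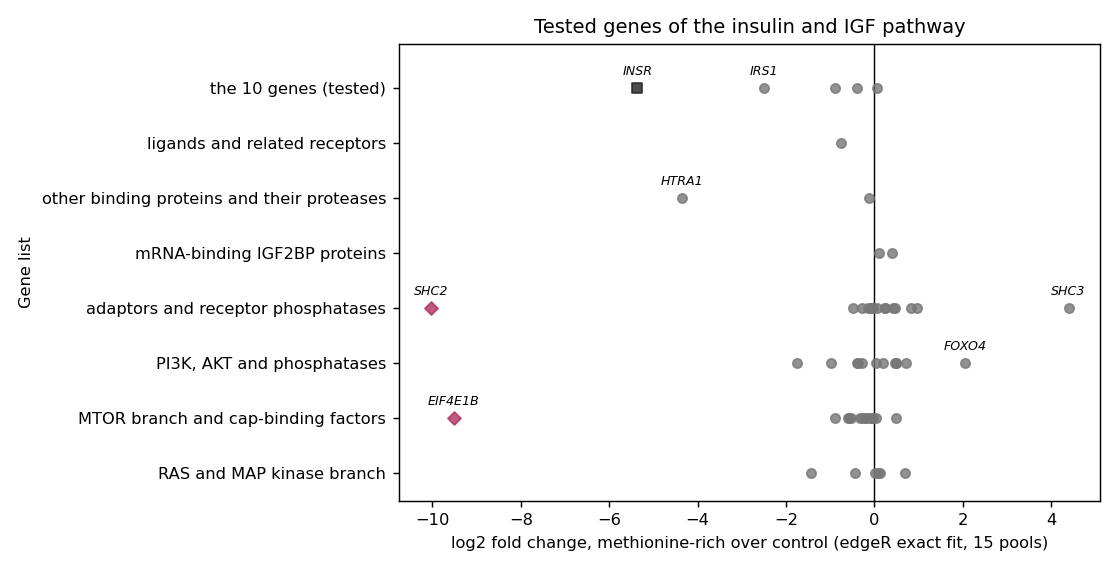
Log2 fold change, methionine-rich over control, from the edgeR exact fit (horizontal axis) of the tested genes of each list (vertical axis); grey circles did not pass the test, red diamonds passed it by the exact test, and the dark square is INSR, given without a test. Most genes lie within 1 unit of 0, SHC2 lies at -10.04 and EIF4E1B at -9.52, both with 0 reads in every methionine-rich pool.

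Among ligands and related receptors, only IGF2R, the receptor that takes IGF2 to lysosomes for degradation, was tested. It was 62.6 ± 21.4 CPM (SD, n = 7) in control and 40.1 ± 32.5 CPM (SD, n = 8) in methionine-rich pools. Its log2 fold change of -0.75 had an FDR of 0.841 (edgeR exact test). INS had 0 reads in the 15 pools, IGF2, its neighbour in the RefSeq annotation, had at most 10 reads in a pool, and INSRR had at most 9. IGF2R was counted in 15 of 15 pools, with at least 20 reads in each, whereas IGF1R reached 20 reads in only C3.1 and M8.1.

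Of the 2 tested genes that act on binding proteins, STC1, an inhibitor of the IGFBP protease PAPPA, had a log2 fold change of -0.11 (FDR of 1.0 by the edgeR exact test) and HTRA1, a protease, one of -4.36 (FDR of 0.792). HTRA1 was counted in only 2 pools, with 82 reads in C2.1. PAPPA2, which cleaves IGFBP5 and IGFBP3, had between 0 and 40 reads in control and 0 in methionine-rich pools and did not pass the filter. The IGF2 mRNA-binding proteins were well sampled, with IGF2BP1 at 32.2 ± 15.9 and 43.4 ± 21.7 CPM and IGF2BP3 at 63.9 ± 22.8 and 68.6 ± 22.2 CPM (SD, n = 7 control and 8 methionine-rich pools). Their log2 fold changes of 0.39 and 0.10 had an FDR of 0.975 and 1.0 by the edgeR exact test. IGF2BP2 was seen in 3 methionine-rich pools, with up to 37 reads, and in 0 control pools, and was not tested.

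Of 16 tested adaptors and receptor phosphatases, the exact test called SHC2, an adaptor of the SHC family. It had 670 reads (119 CPM, 99.5% of its summed level) in C2.1, 2 in C4.1, 1 each in C1.1 and C1.2, and 0 in all 8 methionine-rich pools. Its FDR was 0.00958 (edgeR exact test) and of 0.312 (quasi-likelihood test), and its control mean of 17.1 CPM was at least 326-fold higher than the floor of 3 counts over the 8 methionine-rich pools together. C2.1 is the pool in which the leukocyte markers summed to 2619 CPM, and the part of this in the SHC2 result was not tested beyond leaving the pool out, after which SHC2 fell below the filter on low counts. GRB2, the adaptor that links receptors to SOS and RAS, was 177 ± 114 CPM in control and 160 ± 76.0 CPM in methionine-rich pools (SD, n = 7 and 8), and PTPRF, a receptor phosphatase, was 117 ± 91.5 and 93.9 ± 93.1 CPM. Both had an FDR of 1.0 by the edgeR exact test.

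PTPN11, the SHP2 phosphatase that passes growth factor signals on to the RAS cascade, was the only one of the 53 whose cows did not overlap. Its cow means were 77.9, 58.7, 73.4 and 52.1 CPM in control cows 1 to 4 and 164, 135, 115 and 97.0 CPM in methionine-rich cows 5 to 8. All 4 methionine-rich cows lay above all 4 control cows, an order that 1.16% of all loci tested showed. Pools overlapped, at 64.4 ± 34.7 CPM (SD, n = 7) and 127 ± 54.4 CPM (SD, n = 8). The log2 fold change was 0.96 with an FDR of 0.356 (edgeR exact test) and of 0.388 (quasi-likelihood test). The exact permutation test over cows gave p = 0.0286, the smallest it can give, and 1.0 after adjustment over all loci, so PTPN11 did not pass.

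In the phosphatidylinositol 3-kinase and AKT list, 0 of 12 tested genes passed. INPPL1, a lipid phosphatase that opposes the kinase, was 255 ± 143 and 366 ± 173 CPM (log2 fold change 0.49), and TBC1D4, an AKT substrate that controls glucose transporter traffic, was 294 ± 255 and 232 ± 139 CPM (log2 fold change -0.40), in control and methionine-rich pools (SD, n = 7 and 8). Their FDRs were 0.909 and 0.998 by the edgeR exact test. FOXO3 had 0 reads in the 15 pools.

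Of 14 tested genes of the MTOR branch, the exact test called EIF4E1B, a relative of the cap-binding protein EIF4E known from oocytes. It had 564 reads (84.6 CPM, 99.6% of its summed level) in C1.2 and 2 reads in C2.2, with 0 reads in every other pool analysed, and so 0 in the methionine-rich pools. Its FDR was 0.0423 (edgeR exact test) and of 0.323 (quasi-likelihood test), and its control mean of 12.1 CPM was at least 231-fold higher than the floor of 3 counts over the 8 methionine-rich pools together. The abundant members were steady by comparison. RPS6, a ribosomal protein phosphorylated downstream of MTOR, was 1151 ± 191 and 1028 ± 232 CPM, EIF4E was 254 ± 100.8 and 248 ± 105 CPM, and EIF4B was 185 ± 71.1 and 173 ± 36.2 CPM (SD, n = 7 control and 8 methionine-rich pools). All 3 had an FDR of 1.0 by the edgeR exact test.

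In the RAS and MAP kinase branch, 0 of 6 tested genes passed. NRAS was 169 ± 20.9 CPM in control and 172 ± 50.3 CPM in methionine-rich pools (SD, n = 7 and 8). Its log2 fold change was 0.01 with an FDR of 1.0 by the edgeR exact test. The SD of NRAS over control pools was far below its mean, whereas that of INSR was above its mean.

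**Figure D5:**
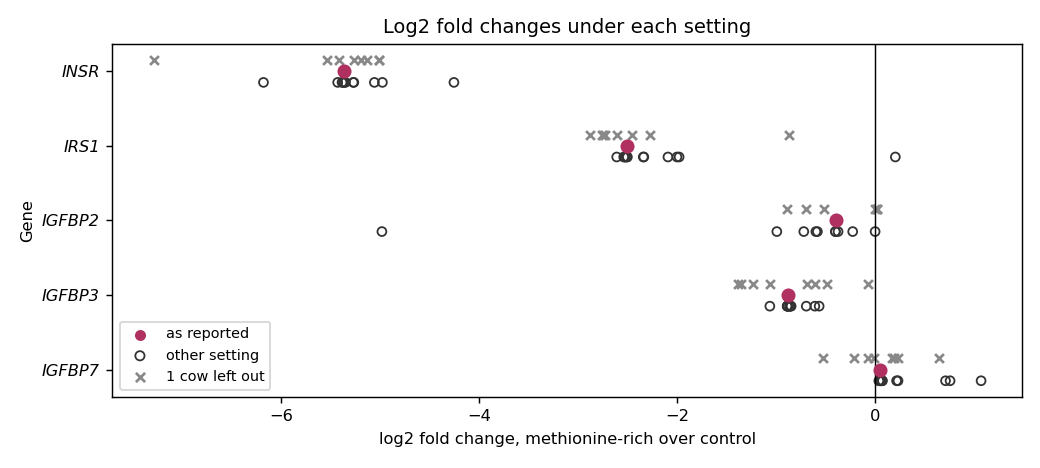
Log2 fold change, methionine-rich over control (horizontal axis), of the 5 tested genes (vertical axis) as reported (red points), under the other settings (open circles) and with 1 cow left out (crosses). IRS1, IGFBP2 and IGFBP7 had values on both sides of 0. INSR lay between -7.29 and -4.25, a range of the same counts for which it was chosen.

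The plot of settings gives the log2 fold changes of the 5 genes. For INSR, whose direction was fixed by its choice and is no sign of stability, they lay between -6.18 and -4.25 under the alternative settings that kept it and between -7.29 and -5.01 when 1 cow was left out, the lowest value being without cow 6, which held the highest methionine-rich pool. It was not tested when at least 1 CPM was required in 7 pools. The count of the 4 other tested genes that passed was 0 under every alternative and with any 1 cow left out.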

How the data were processed

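The authors amplified and sequenced RNA of the 16 blastocyst pools, aligned reads to the bovine genome bosTau7 with TopHat2 2.0.4, assembled transcripts with Cufflinks 2.0.2 and counted reads per locus with HTSeq (intersection-nonempty mode). The strand setting is not given in the sources used here. The deposited tables hold these counts without normalization, 1 table per pool with 22552 lines for 22358 loci, and each locus was entered once. Reads of neighbouring or overlapping genes, such as IGFBP2 and IGFBP5, could not be examined, since the genome of this build was not used here.

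Following the study's methods, pool C3.2 was left out and loci with a summed CPM of at least 15 over the 15 remaining pools (7 control, 8 methionine-rich) were kept. In edgeR 4.0.16 (R 4.3.3), counts were scaled by TMM, and the exact test with common and tagwise dispersion was applied, with Benjamini-Hochberg adjustment over all loci kept. A locus was called at an FDR under 0.1 with a fold of 2 or more. The loci tested and the loci called were both fewer here than the study reports, and the cause was not tested. The quasi-likelihood test stands beside it, and SEs are from DESeq2 1.42.0. The code was tested on simulated counts that had no cow effect and less spread between pools than these data. That checks the code, not how the tests behave on these pools. Because the cow received the diet, cow means of CPM were compared by two-sided exact permutation over the 70 assignments of 8 cows, where p cannot be below 0.0286. The p-values over pools and the SEs, that of INSR included, treat pools of 1 cow as separate samples.

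No pair of pools held the same library (smallest chi-square per degree of freedom 64.5). Named genes are the 10 genes, and from the pathway lists those called, the 3 most abundant of each list, and those with non-overlapping cows at a mean of at least 5 CPM, plus the 5 loci most like INSR. Some genes that this rule names are not reported here. This last rule also covered the gene of the 10 with the highest mean CPM, which was INSR itself. The genes, lists and tests were chosen with earlier results of these data known. Alternatives covered the test (also limma 3.58.1 with voom), scaling, filter, pools left out, summed pools per cow, a block for pool number, the number of blastocysts as a covariate, the FDR threshold and each cow left out. Sequences of the genes were not used here.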

Additional observations from a re-analysis of the deposited data

Results flagged for a closer look

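In 12 of the 17 groups of pools examined, for the 10 genes and the 2 called pathway genes, the highest pool stood apart from the other pools of its treatment by more than Dixon's 95% criterion. Chance gives about 1 in 20 for normally distributed values, which these low and skewed counts are not, and the same criterion was met in 28.6% of groups over all loci tested and in 45.5% at a mean of 1 to 5 CPM. For the 10 genes alone it was met in 10 of 15 groups. SHC2 and EIF4E1B were already known to hold over 99% of their level in 1 pool. The widely spaced levels were 47.6 CPM of IRS1 in C4.1, 11.0 CPM of IGFBP7 in C4.1 and 10.02 CPM of IGFBP7 in M8.1. For IGF1R they were 6.87 CPM in C3.1 and 4.18 CPM in M8.1, and for IGFBP2 10.4 CPM in C2.2 and 7.90 CPM in M6.1. INSR stood apart in M6.1, at 3.13 CPM, but in no control pool. The values of 0.528 CPM for IGFBP4 in C1.1 and 0.168 CPM for IGFBP5 in M6.2 rest on 4 reads and 1 read. SHC2 stood apart at 119 CPM in C2.1, and EIF4E1B at 84.6 CPM in C1.2. Pools C4.1, M6.1 and M8.1 each appear for 2 genes, and IGFBP3 was in neither treatment among these results.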

How the results depend on the processing

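Under the alternatives, 0 of IRS1, IGFBP2, IGFBP3 and IGFBP7 passed. The 110 loci called by the exact test became 0 with the quasi-likelihood test, with limma voom (cow as random effect), with a replicate block for pool number and with the number of blastocysts as a covariate (block and covariate in quasi-likelihood fits, where the fit without them also called 0). They became 67 with DESeq2, 55 with no filter except 1 count, 6 with at least 1 CPM in 7 pools, 341 with all 16 pools, 64 without C2.1 and 60 at an FDR under 0.05. With 1 cow left out they ranged from 62 to 153, with 66 without cow 7 and 62 without cow 8, and the share of calls lower in the methionine-rich treatment was 73.6% with all cows, 48.5% without cow 7, 88.4% without cow 1 and 90.2% without cow 4. The 2 pathway calls, SHC2 and EIF4E1B, became 0 with the quasi-likelihood test, voom, the block and the covariate. DESeq2 gave neither gene an adjusted p-value, with log2 fold changes of -1.85 for SHC2 and -0.90 for EIF4E1B. Neither was tested with the filter in 7 pools. The calls were 4 with all 16 pools (BRAF and MTOR added), 1 without C2.1 (EIF4E1B), and between 1 and 2 with 1 cow left out. SHC2 was no longer tested without cow 2, which holds most of its reads, nor EIF4E1B without cow 1, which holds most of its reads. EIF4E1B was tested but not called when any 1 of cows 5 to 8 was left out.

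Directions turned for IRS1 with voom (log2 fold change 0.21) and for IGFBP2 with the pool number as a block (0.00388). With 1 cow left out, the log2 fold change ranged from -0.883 to 0.0274 for IGFBP2 and from -0.53 to 0.65 for IGFBP7. The difference of cow means ranged from -1.56 to 0.784 CPM for IGFBP2, from -7.12 to 0.436 CPM for IGFBP3 and from -0.656 to 1.12 CPM for IGFBP7. With the blastocyst covariate the log2 fold change of IGFBP2 was -4.98. IGFBP2 was not tested with at least 1 CPM in 7 pools, with the pools of a cow summed, or without cow 2 or cow 6. DESeq2 gave it no adjusted p-value. The cause of these changes was not tested. Pools that share a pool number did not deviate together (mean correlation -0.07 over 49 pairs, against -0.06 for 49 pairs with different numbers), so the number does not pair them. For pools of the same cow the mean correlation was -0.11 over 7 pairs, all within a treatment. Deviations were taken from the treatment mean, which by itself lowers correlations within a treatment. This value therefore cannot show whether pools of a cow vary together. The voom fit put the correlation within a cow at 0.0351. Depth limits IGF1R, IGFBP4, IGFBP5, IRS2 and IGF1, for which most pools lay at or under the floor of 3 counts.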

Other observations

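Pool C3.2, which was left out of all tests, had 1 or more reads for only INSR (13 reads) and IRS1 (1 read) of the 10 genes, but more reads than any of the 15 other pools for several genes further down the pathway, although its total count was the lowest. In this library most mapped reads lay outside exons according to the study, which left it out, and the part of this in these counts was not tested. SHC1, an adaptor of the same family as SHC2, had 1262 reads in C3.2 and at most 792 in another pool. MTOR, the kinase at the head of the growth branch, had 576 reads in C3.2 and at most 35 elsewhere, and BRAF, a RAF kinase, had 490 and at most 124. These are values of 1 pool. In the 15 pools, GRB10, an adaptor that inhibits insulin and IGF1 receptors, was 61.3 ± 44.9 CPM in control and 86.4 ± 34.0 CPM in methionine-rich pools (SD, n = 7 and 8), with a log2 fold change of 0.47 and an FDR of 0.975 by the edgeR exact test, and RICTOR, a subunit of the second MTOR complex, was 34.9 ± 21.5 and 19.6 ± 9.53 CPM, with a log2 fold change of -0.89 and an FDR of 0.683. The 5 genes named here were chosen after their values were seen.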
